A study of Rattus norvegicus with 35 samples.

Results

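Genes of the sarcomere's thin filament, its myosin light chains and 1 Z-disc protein were followed in neonatal rat heart cells, both in samples enriched for cardiac myocytes (CM) and in cultures of fibroblasts (FB). The members were all probe-sets of the array whose single gene symbol was Actc1, Tnnt2, Tnni3, Tnni1, Tpm1, Myl2, Myl3, Myl1 or Csrp3. All 9 genes were on the array, with 16 of the 8740 probe-sets tested and 9 of the 4736 genes that have a probe-set of their own. The rule reads gene symbols only, and the genes were named with earlier results of these data known. All 16 probe-sets were above the floor of the scale on all 35 arrays. Tpm1 had 5 probe-sets, Myl2 had 3 and Tnni3 had 2, and the one with the highest mean over all arrays stands for the gene unless another is named.

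Cells came from ventricles of newborn rats and were separated by pre-plating, with no genetic change in any group. CM-enriched cultures and cultures of fibroblasts were stretched cyclically for 24 h on collagen-coated flexible plates (mechanical stress, MS), with cells on the same plates left unstretched as controls. Ionising radiation (IR) meant X-rays given once at 8.5 Gy, and ultraviolet radiation (UV) meant 10 J/m2 of UVC, each with sham-irradiated controls, and RNA was taken 24 h later. After IR and UV the CM-enriched cultures were further separated by elutriation, so those samples are called CM-enriched fractions. Each treated or control group had 3 arrays, but only 2 sham-UV controls of CM-enriched fractions exist here. The CM-enriched samples still held other cells and the cultures of fibroblasts still held some myocytes, so each array reads a mixture.

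In muscle, myosin heads pull on thin filaments of actin wound with tropomyosin. The troponin complex on the thin filament makes that pull depend on calcium, with troponin T binding tropomyosin and troponin I holding the filament off until calcium rises. The light chains brace the lever of each myosin head, and the Z-disc anchors the thin filaments of neighbouring sarcomeres. Around birth the rat heart exchanges slow skeletal troponin I (Tnni1) for the cardiac form (Tnni3). Cardiac actin (Actc1), cardiac troponin T (Tnnt2), the ventricular regulatory light chain (Myl2) and the ventricular essential light chain (Myl3) are standard markers of heart muscle cells.

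Promoter windows are shown because most of these genes fell after UV in cultures of fibroblasts. RefSeq windows (GRCr8) running from 250 bases before to 50 bases after the annotated start were matched for 7 of the 9 genes, all but Csrp3 and Myl2. Both strands were searched for a CArG box, to which serum response factor binds, for a MEF2 site, for the M-CAT motif CATTCC, for the GATA motif AGATAA, for the TATA box TATAAA and for the E-box CANNTG. In the sequences below capitals mark a CArG box (Actc1, Myl3), a MEF2 site (Myl1), M-CAT (Tpm1, as its reverse complement) or GATA (Tnni3, as its reverse complement). The windows are at chr3:121271806-121271835 (minus strand), chr8:119616964-119617093 (plus strand), chr9:75897956-75897985 (minus strand), chr8:76543416-76543545 (minus strand) and chr1:78342441-78342570 (plus strand), and those of 130 bases end at the base before the start.
Actc1: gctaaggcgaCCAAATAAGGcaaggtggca
Myl3: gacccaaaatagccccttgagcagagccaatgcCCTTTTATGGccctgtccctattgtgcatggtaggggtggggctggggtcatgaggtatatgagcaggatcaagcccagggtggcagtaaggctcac
Myl1: cgctggattcCTAAAAATAGccctagggta
Tpm1: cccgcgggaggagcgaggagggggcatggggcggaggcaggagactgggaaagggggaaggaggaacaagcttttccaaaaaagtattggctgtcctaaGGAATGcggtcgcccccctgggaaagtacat
Tnni3: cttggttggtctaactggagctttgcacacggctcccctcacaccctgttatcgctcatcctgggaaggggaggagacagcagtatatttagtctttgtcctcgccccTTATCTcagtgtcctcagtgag

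A CArG box stood in 2 of the 7 windows, those of Actc1 and Myl3, against 1.64% of all 33469 promoter windows. The box of Actc1 lay at bases 3 to 12 after the annotated start and that of Myl3 at bases -97 to -88. A MEF2 site stood only in the Myl1 window among the 7 (3.29% of all windows), and an AGATAA only in that of Tnni3 (11.6%). M-CAT was in 2 windows, those of Tpm1 and Myl3 (14.2% of all). The E-box was in 5 of the 7 and in 72.1% of all windows, and TATAAA in none of the 7 and in 14.2% of all. These matches describe letters only, binding was not measured, and no motif was tested against the change after UV.

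Levels are given as log2 of the intensity after the arrays had been brought to 1 scale, which ran between 2.79 and 13.46. Between 14.5% and 24.9% of the probe-sets of an array were at the floor, and arrays of 1 group correlated with Spearman coefficients between 0.922 and 0.979. The labelled populations were checked against their markers. Myh6, a cardiac myosin heavy chain, averaged 12.61 in untreated CM-enriched fractions of the UV experiments and 9.87 in the matching cultures of fibroblasts (limma adjusted p = 0.18). Col1a1, a fibroblast collagen, averaged 11.52 in those fractions and 13.15 in those cultures (0.00615). In these UV controls 15 of 23 other myocyte markers were higher in CM and 0 lower (10.6% and 11.8% of all probe-sets). Of 17 fibroblast markers 1 was higher and 15 lower, and in MS controls 3 and 7 (10.2% and 12.3% of all). Of 8 smooth muscle and myofibroblast markers 2 were higher in UV controls of CM and 3 lower. For 8 endothelial and blood markers the counts were 2 and 1. CM-enriched cultures on collagen plates held more fibroblast transcript than the elutriated fractions: their 17 fibroblast markers summed to between 15.62 and 15.69 in controls, against 14.56 to 14.92 in controls of the CM-enriched fractions after sham-UV. On such mixtures fewer myocytes in a culture and less of a transcript per myocyte cannot be told apart.

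In untreated samples the 9 genes were higher in CM-enriched samples than in cultures of fibroblasts, and all of them were above the floor in fibroblasts too. The floor is a low percentile of the intensities, so lying above it does not show that a gene was expressed. In the controls of the MS experiments 14 of the 16 probe-sets were higher in CM-enriched cultures (10.2% of all probe-sets were) and 0 lower (12.3% of all). In the controls of IR 14 were higher (12.2%) and 1 lower (13.1%), and in the controls of UV 5 were higher (10.6%) and 1 lower (11.8%). Counted by gene, 9 of 9 passed as higher in the MS and in the IR controls and 4 of 9 in the UV controls. The spread in this test was pooled over the controls of all stressors. A gene that did not pass in UV controls may therefore still differ there. The median of the 9 differences was 2.40, 2.5 and 1.93 log2 units in MS, IR and UV controls, against 0 over all probe-sets.

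Slow skeletal troponin I separated the populations most. In CM-enriched samples Tnni1 was at 11.10, 10.43 and 10.60 in MS controls, at 11.59, 11.61 and 11.58 in IR controls and at 11.48 and 11.68 in UV controls. In cultures of fibroblasts it was at 3.78, 5.85 and 3.17, at 4.92, 4.34 and 6.26, and at 6.04, 6.33 and 6.48. No array of one population came near the other. On FB arrays Tnni1 was dim, ranking between 3169th and 6663rd of 8740 probe-sets, so the size of the folds below is uncertain. The difference was 6.44 (standard error 0.59, limma adjusted p = 3.45e-05) in MS controls, 6.42 (0.59, adjusted p = 1.75e-05) in IR controls and 5.30 (0.66, adjusted p = 0.000165) in UV controls, or 39.4-fold to 87-fold.

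For cardiac actin and cardiac troponin T the gap between the populations was smaller. Tnnt2 lay between 12.34 and 12.77 over the 8 CM controls and between 10.49 and 11.72 over the 9 FB controls, and CM exceeded FB by 1.34, 1.51 and 1.26 (standard errors 0.24, 0.24 and 0.26). Actc1 lay between 12.79 and 13.15 in CM controls and between 9.30 and 12.53 in FB controls. Its difference was 1.88 (0.62, adjusted p = 0.0482) in MS controls, 1.88 (0.62, adjusted p = 0.0445) in IR controls and 0.77 (0.70, adjusted p = 0.52) in UV controls. On CM arrays Actc1 ranked between the 2nd and the 33rd brightest of all probe-sets and Myl2 between the 7th and the 40th. Whether differences are compressed so near the top of the scale was not tested.

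The light chains and the Z-disc protein differed between the populations too. Myl3 was higher in CM by 3.49, 3.52 and 1.93, and Myl2 by 2.49, 2.22 and 0.87. Csrp3, the muscle LIM protein, was higher by 2.27, 4.0 and 3.62. The UV values of Myl3 (adjusted p = 0.11) and Myl2 (0.54) did not pass the test. Its spread was pooled over the controls of all stressors. The standard deviation of Myl3 was 1.81 in FB MS controls, 1.12 in FB IR controls and 0.05 in FB UV controls. In UV controls Myl3 was at 12.53 and 12.69 in CM and between 10.63 and 10.72 in FB, without overlap. Myl1 encodes the fast skeletal essential light chain. It lay between 5.0 and 7.03 in CM controls and between 4.11 and 5.23 in FB controls, with differences of 0.94, 1.32 and 2.05 (standard errors 0.24, 0.24 and 0.27), all past the test. Tnni3, the adult cardiac inhibitor, was higher by 3.25, 3.51 and 2.01 (UV adjusted p = 0.11).

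**Figure D1:**
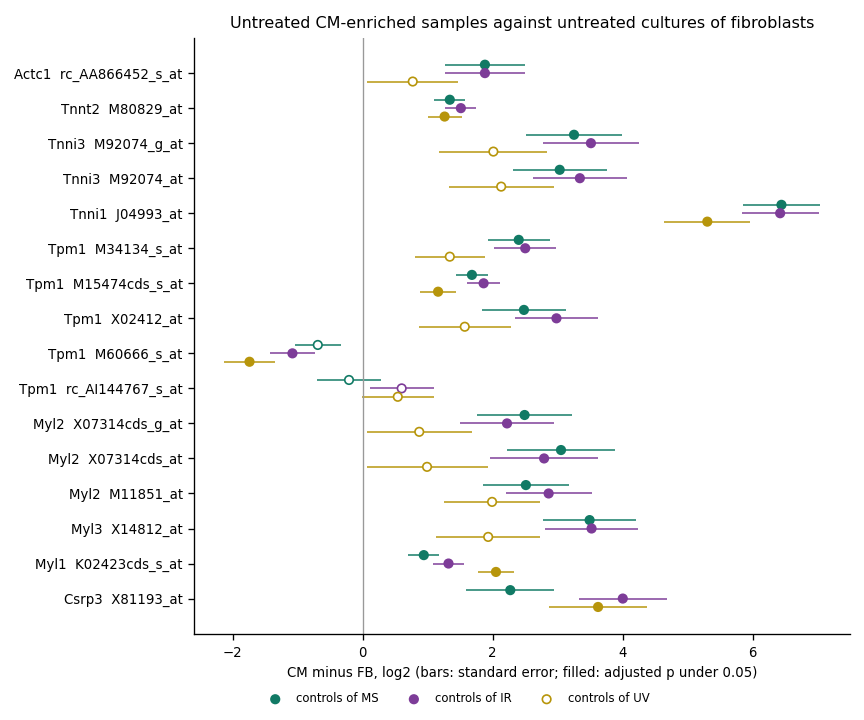
Difference of untreated CM-enriched samples from untreated cultures of fibroblasts (log2, x axis) for the 16 probe-sets (y axis), with 1 colour for the controls of each stressor. Bars are standard errors and filled points passed the test; Tnni1 lies farthest right and the Tpm1 probe-set M60666_s_at lies left of 0 in all 3.

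Leaving out arrays moved these counts. Without replicate 1 of every group 1 probe-set was higher in MS controls, 5 in IR controls and 2 in UV controls, and without replicate 3 there were 3 in MS controls. On the arrays of each comparison alone the counts were 2, 11 and 13 for MS, IR and UV. Such fits take the spread from the compared arrays only, so the count in UV controls depends on which arrays set the spread.

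Tpm1 did not behave as 1 transcript. Tropomyosin 1 is spliced into muscle and non-muscle forms, and the annotation used here does not say which form each probe-set reads. Of its probe-sets, M34134_s_at, M15474cds_s_at and X02412_at, were higher in CM controls than in FB controls in MS and IR, by 2.40, 1.68 and 2.48 in MS controls and by 2.5, 1.86 and 2.98 in IR controls. In UV controls M15474cds_s_at passed at 1.16 (adjusted p = 0.0098), while M34134_s_at at 1.34 (0.0997) and X02412_at at 1.57 (0.15) did not. Probe-set M60666_s_at ran the other way, at -0.69 (adjusted p = 0.19) in MS controls, -1.08 (0.039) in IR controls and -1.74 (0.0065) in UV controls. In the UV controls it was at 8.67 and 9.62 in CM-enriched fractions and at 10.83, 10.79 and 11.04 in cultures of fibroblasts. The call in IR controls was lost without replicate 1, without replicate 2 and on the comparison's own arrays, and the call in UV controls was lost without replicate 1. The last Tpm1 probe-set, rc_AI144767_s_at, was dim, between 3.43 and 5.85 on all arrays, and differed in no comparison. The letter s in a name marks probes that may match related transcripts too, which applies to 4 of these 5 probe-sets and to those of Actc1 and Myl1.

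Among CM controls all 9 genes had a higher mean in the elutriated fractions than in the cultures on collagen plates. The median difference of the 9 genes from MS controls was 0.26 in IR controls and 0.47 in UV controls, and few of these differences passed the test. Over CM-enriched cultures (MS controls), the fractions of the IR controls had 0 probe-sets higher (3.82% of all) and 0 lower (4.31%). The fractions of the UV controls had 1 higher (2.97%) and 0 lower (4.23%). Between the fractions of UV and of IR controls 0 were higher (1.56%) and 0 lower (1.54%). The 1 call was Myl1, at 7.03 and 6.57 in UV controls and at 5.0, 5.49 and 5.47 in MS controls (1.48, standard error 0.27, adjusted p = 0.0065), a call that was lost without replicate 1 or without replicate 2. Csrp3 had the larger difference, 2.27 (0.76), with adjusted p = 0.099. Culture, elutriation and experiment differ between these groups and cannot be told apart.

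The cultures of fibroblasts differed widely in their level of these genes before any treatment. Over the 9 FB controls the highest and lowest array differed by 4.21 log2 units for Myl3, 3.79 for Myl2 and Tnni3, 3.34 for Csrp3, 3.31 for Tnni1, 3.23 for Actc1, 2.43 for Tpm1, 1.23 for Tnnt2 and 1.12 for Myl1. The 8 CM controls spanned 0.31 for Myl2 and 0.36 for Actc1, and at most 2.68, for Csrp3. The lowest array was an MS control for all 9 genes, and within that group Myl3 was at 8.06, 10.11 and 6.51. The UV controls were high and close together, with Myl3 at 10.70, 10.63 and 10.72.

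After MS and IR a treated culture lay close to the control of its own experiment number for most of the genes. Stretched cultures had Myl3 at 8.10, 10.35 and 5.96, beside controls at 8.06, 10.11 and 6.51. Over the 6 pairs of MS and IR the treated and control arrays of a pair differed in Actc1 by a median of 0.18 and at most 0.33, in Csrp3 by 0.12 and at most 0.45, and in Tnni3 by 0.31 and at most 0.39. In 8 of the 9 genes no pair differed by 1 log2 unit, and the exception was Tnni1, with up to 1.44. These figures describe the arrays. The numbered experiment was in the fit for another reason: the authors' model has such a term, and samples of an experiment were labelled together.

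**Figure D2:**
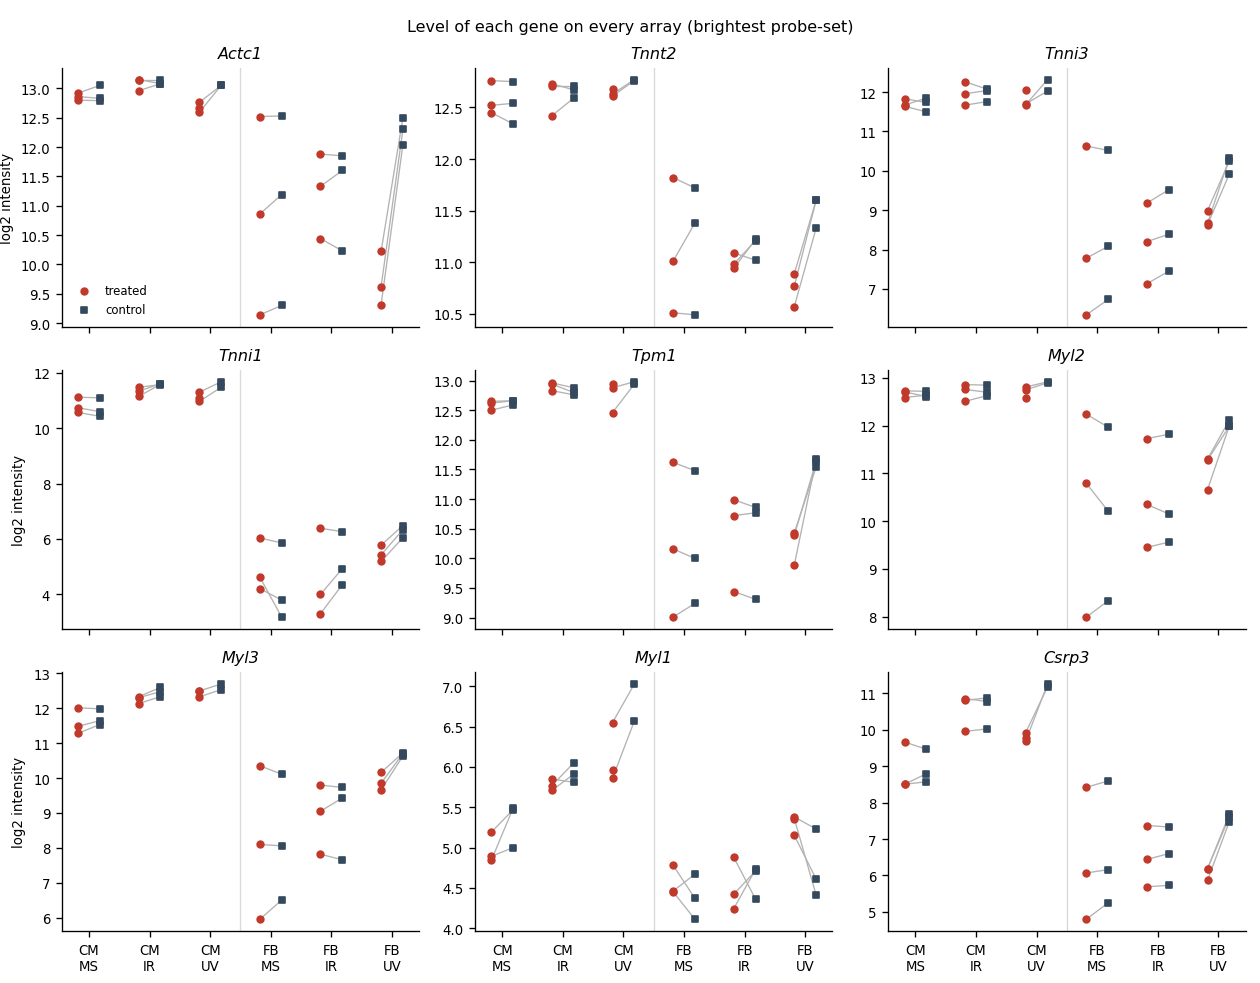
Level of each gene (log2 intensity, y axis, its own scale per panel) on all 35 arrays, by population and stressor (x axis), with treated arrays as circles left of control squares and lines joining the same experiment number. FB arrays span up to 4.21 log2 units among controls while CM controls span between 0.31 (Myl2) and 2.68 (Csrp3), and after UV the FB lines slope one way for 8 of the 9 genes.

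UV lowered these transcripts in cultures of fibroblasts. Of the 16 probe-sets 14 fell (11.2% of all probe-sets did) and 0 rose (11.8% of all did), which covers 8 of the 9 genes. In 14 probe-sets every UV array lay below every control array (13.8% of all probe-sets), and in 0 above (16% of all). The median change of the 9 genes was -0.96, and by pair it was -0.86, -1.34 and -0.72, against 0 over all probe-sets.

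Cardiac actin fell most. Actc1 was at 9.62, 9.31 and 10.22 after UV and at 12.30, 12.04 and 12.50 in controls, with a wide gap between the groups. The change was -2.56 (standard error 0.10, limma adjusted p = 1.57e-08), a 5.92-fold fall. It passed the test under all 11 alternative settings, in which the change lay between -2.73 and -2.48.

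The other thin filament genes fell less. Tnni3 was at 8.99, 8.67 and 8.63 after UV and at 10.25, 10.32 and 9.92 in controls (-1.40, standard error 0.11, adjusted p = 1.58e-06), and its second probe-set gave -1.38. Tnnt2, the tropomyosin-binding troponin, was at 10.77, 10.57 and 10.89 after UV and at 11.60, 11.33 and 11.60 in controls (-0.77, 0.09, adjusted p = 3.2e-05). The fetal inhibitor Tnni1 was at 5.18, 5.42 and 5.77 after UV and at 6.04, 6.33 and 6.48 in controls (-0.82, 0.23, adjusted p = 0.0179), and this call was lost without replicate 1 (adjusted p = 0.22) or without replicate 2 (0.17). No UV array of these 3 genes reached a control. Each was therefore lower in 3 of 3 pairs.

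Tropomyosin fell through 4 of its 5 probe-sets. X02412_at was at 9.0, 8.21 and 8.90 after UV and at 10.73, 10.57 and 10.48 in controls (-1.89, 0.14, adjusted p = 1.38e-06). M34134_s_at changed by -1.38, M15474cds_s_at by -1.31 and M60666_s_at, the set brighter in fibroblasts, by -1.04, with adjusted p of 1.09e-05 or less. The dim rc_AI144767_s_at gave -0.49 (adjusted p = 0.30). The fall was thus seen by probe-sets that were brighter in CM and by the one that was brighter in FB.

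Both ventricular light chains fell. Myl2 was at 11.30, 10.66 and 11.28 after UV and at 12.12, 12.00 and 11.99 in controls (-0.96, 0.15, adjusted p = 0.000398). Its other probe-sets gave -1.12 and -1.01, both past the test. Myl3 was at 9.85, 9.66 and 10.16 after UV and at 10.70, 10.63 and 10.72 in controls (-0.80, 0.13, adjusted p = 0.000775). Leaving out replicate 1 lost Myl3 (adjusted p = 0.065) and Myl2 X07314cds_at (0.0503), and leaving out replicate 2 lost Myl2 X07314cds_g_at (0.060).

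Csrp3, which sits at the Z-disc and is studied as a sensor of stretch, was at 6.19, 5.87 and 6.19 after UV and at 7.60, 7.48 and 7.68 in controls. The change was -1.5 (0.09, adjusted p = 3.05e-07), a 2.83-fold fall. Myl1 alone had a positive change. It was at 5.15, 5.38 and 5.36 after UV and at 4.61, 5.23 and 4.41 in controls (0.55, 0.21, adjusted p = 0.085), and the groups overlapped. It passed with a random block (0.041) or with the floor at the 40th percentile (0.014). It was also the only one of the 9 genes that was higher after UV in 3 of 3 pairs.

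The count rests on pairing the arrays. Without the experiment block 4 probe-sets fell, those of Actc1 and Tnnt2 and the Tpm1 sets M15474cds_s_at and M60666_s_at, which were also called under the other 10 alternatives. With a random block 7 fell, and 8 on the 6 arrays of the comparison alone. Without the block the shared spread also holds the differences between cultures of the other experiments. The standard deviation of Tnni3 was 1.92 in FB MS controls, 1.04 in FB IR controls and 0.22 in FB UV controls. A lower count without the block therefore does not show that the UV change rests on its pairs.

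After UV the cultures still held more of several of these transcripts than some untreated cultures of other experiments did. Of the 6 FB controls of MS and IR, 4 were below all 3 UV arrays for Tnni3, Myl2, Myl3 and Tnni1, 2 for Tpm1 and Csrp3, and 1 for Actc1 and Tnnt2. For Actc1 and Tnnt2 the other 5 were above all UV arrays. The arrays come from different experiments, so this sets levels side by side without a test.

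**Figure D3:**
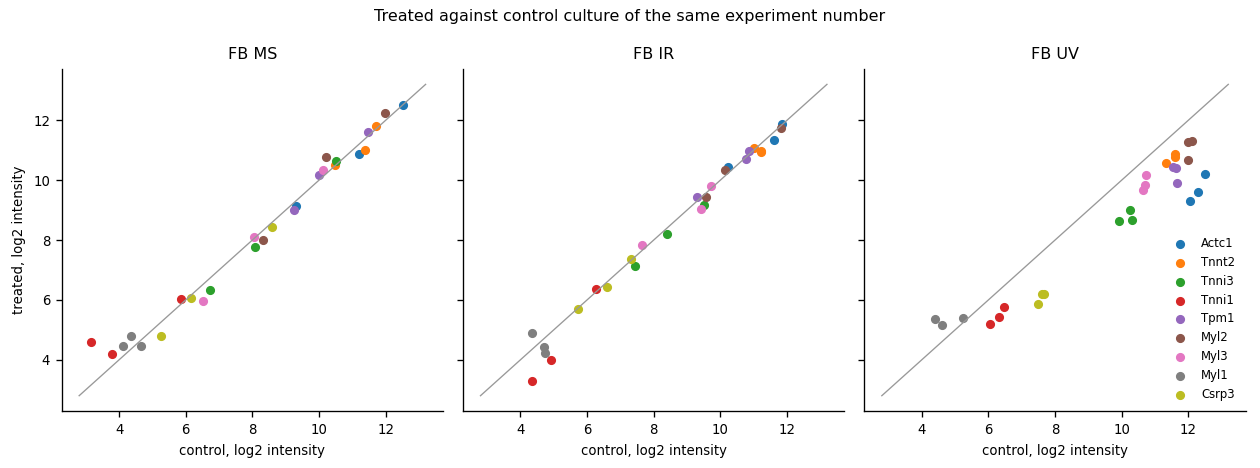
Level in each treated culture of fibroblasts (log2 intensity, y axis) against the control of the same experiment number (x axis), for the 9 genes in 3 pairs after MS, IR and UV. Points follow the line of equal level after MS and IR, and after UV all points but those of Myl1 lie below it.

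In CM-enriched fractions UV lowered fewer of the genes. Of the 16 probe-sets 7 fell (8.17% of all did) and 0 rose (8.63% of all did), and of the 9 representative probe-sets 2 fell, those of Csrp3 and Tnni3. The comparison rests on 2 pairs, since the third UV array has no control of its number and adds nothing to the fitted change. All 9 genes were lower in both pairs, with a median of -0.47 in the first, -0.28 in the second and -0.37 in the fit. In 13 probe-sets the 3 UV arrays lay below both controls (15.3% of all) and in 1 above (16.6% of all).

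Csrp3 changed most. It was at 9.69, 9.92 and 9.77 after UV and at 11.25 and 11.17 in controls, with no overlap. The change was -1.40 (standard error 0.11, adjusted p = 8.68e-06), a 2.65-fold fall, with -1.56 and -1.25 in the 2 pairs. It was called under 8 of 11 alternatives and lost without the block (adjusted p = 0.32), with a random block (0.12) and on the comparison's own arrays (0.31).

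The next was tropomyosin, through the probe-set that was brighter in fibroblasts. Tpm1 M60666_s_at was at 7.53, 8.12 and 8.48 after UV and at 8.67 and 9.62 in controls (-1.33, 0.12, adjusted p = 3e-05), lower in 2 of 2 pairs. The Tpm1 sets brighter in CM changed by -0.73 (X02412_at, adjusted p = 0.013), -0.38 (M15474cds_s_at, 0.021) and -0.29 (M34134_s_at, 0.20). Markers of fibroblasts moved in the same fractions: of 17 on the array 4 fell and 0 rose, among them Col1a2 by -1.45 and Vim by -0.85, and the 17 summed to between 14.42 and 14.71 after UV, against 14.56 and 14.92 in controls. Of all probe-sets 8.17% fell and 8.63% rose in these fractions. The part of other cells in the fall of M60666_s_at was not tested.

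The rest of the thin filament changed little. Tnni3 was at 11.68, 11.70 and 12.06 after UV and at 12.32 and 12.03 in controls (-0.48, 0.13, adjusted p = 0.0257), where the third UV array overlapped the controls. Its second probe-set gave -0.64 (adjusted p = 0.0058). Actc1 was at 12.59, 12.76 and 12.67 after UV and at 13.05 and 13.05 in controls, which did not overlap, but -0.37 (0.12) did not pass the test (adjusted p = 0.056). Tnnt2 at -0.14 and Tnni1 at -0.45 did not pass either (adjusted p = 0.43 and 0.33).

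Among the light chains 1 of the 3 Myl2 probe-sets fell. M11851_at was at 11.82, 11.38 and 10.95 after UV and at 12.49 and 12.27 in controls (-0.78, 0.12, adjusted p = 0.00078). The brighter X07314cds_g_at and X07314cds_at gave -0.13 and -0.12 with adjusted p of 0.79 and 0.87. Myl3 changed by -0.20 (adjusted p = 0.50) and Myl1 by -0.60 (0.14). The last passed with a random block (0.043) and with the floor at the 40th percentile (0.017).

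The calls in CM-enriched fractions were less firm than those in fibroblasts. No member was called without the block or on the 5 arrays of the comparison alone, and 2 were with a random block. The fit on 5 arrays has only 2 pairs to estimate the spread. Its adjusted p was 0.308 even for Csrp3 and Tpm1 M60666_s_at, so a call lost there says little. Leaving out replicate 1 left 3 calls and leaving out replicate 2 left 4. The 3′ to 5′ ratio of the actin control probes, a sign of RNA quality, was 0.85 on UV array 1 and between -0.14 and 0.30 on the other 4 (log2), and its part in these changes was not tested.

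**Figure D4:**
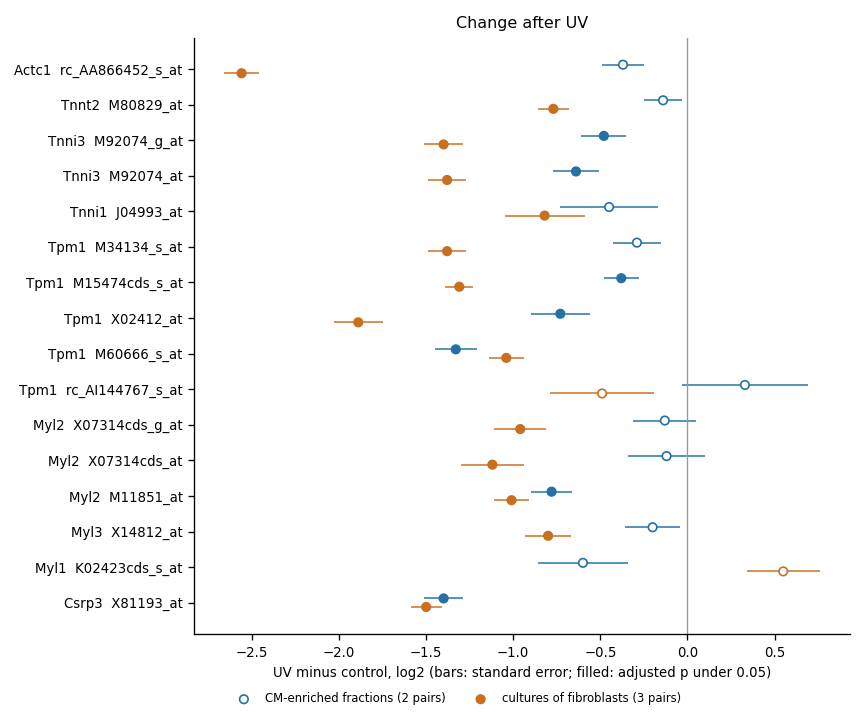
Change after UV (log2, x axis) for the 16 probe-sets (y axis) in CM-enriched fractions (blue, 2 pairs) and cultures of fibroblasts (orange, 3 pairs). Bars are standard errors and filled points passed the test; the populations lie far apart for Actc1 (-0.37 and -2.56) and together for Csrp3 (-1.40 and -1.5).

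The change after UV was compared directly between the populations. The difference, CM minus FB, was above 0 for 7 probe-sets (3.58% of all) and below 0 for 0 (2.75% of all). For Actc1 it was 2.19 (standard error 0.16, adjusted p = 1.82e-05), from -0.37 in CM and -2.56 in FB. Tpm1 differed by 1.16 (X02412_at), 1.09 (M34134_s_at) and 0.92 (M15474cds_s_at), Tnni3 by 0.92 and 0.74 and Tnnt2 by 0.62. In each of these the measured fall was larger in the fibroblast cultures. In UV controls of CM, Actc1 averaged 13.05, Tpm1 M34134_s_at 12.96 and Tnnt2 12.77, near the top of the scale (13.46). Tnni3 M92074_at, at 11.05, lay farther from it. Whether falls in CM were compressed near the top was not tested.

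No difference was detected for Csrp3. Its value was 0.10 (0.15, adjusted p = 0.82), and that of Tpm1 M60666_s_at was -0.29 (0.16, adjusted p = 0.36). Myl1 had the only large difference below 0, at -1.14 (0.33, adjusted p = 0.063). Myl2 at 0.83 and Myl3 at 0.59 did not pass the test (adjusted p = 0.057 and 0.14). None of the 7 differences passed without the block, with a random block or on the comparison's own arrays, where Actc1 had adjusted p of 0.38, 0.091 and 0.085. Without replicate 1 the difference of Actc1 alone was called, and without replicate 2 those of Actc1 and Tpm1 M15474cds_s_at.

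Stretch and X-rays changed none of the 16 probe-sets past the test. In CM-enriched cultures after MS 0 rose and 0 fell (0% and 0% of all). In CM-enriched fractions after IR 0 rose (0.286% of all) and 0 fell (0.458%). In cultures of fibroblasts after MS 0 rose and 0 fell (0% and 0%), and after IR 0 rose and 0 fell (0.0458% and 0.0458%). Few probe-sets of any gene passed in these comparisons, so a count of 0 here does not show that the genes did not move. At an unadjusted p under 0.05 there was 1 lower in CM after MS (2.47% of all probe-sets), 1 lower in CM after IR (5.57%), 2 higher and 1 lower in FB after MS (2.83% and 2.55%) and 2 lower in FB after IR (3.78%).

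The values were small. Over the 16 probe-sets the changes ran between -0.35 and 0.36 in CM after MS, with Actc1 at -0.03, Tnnt2 at 0.04 and Csrp3 at -0.05. In CM after IR they ran between -0.34 and 0.09. The lowest was Myl2 M11851_at, at 10.87, 11.71 and 11.60 after IR and at 11.38, 12.06 and 11.76 in controls, lower in 3 of 3 pairs (-0.34, 0.10, adjusted p = 0.18), and its other probe-sets were at -0.05 and -0.01. The log2 3′ to 5′ ratio of the actin control probes was 1.22 on CM IR array 3 and between 0.04 and 0.20 on the other arrays of that comparison. That array was scanned apart from the others, and IR arrays 1 and 3 came from another lot than the controls. Scan and lot were each tried as a further block, and the part of RNA quality was not tested. In FB after MS changes ran between -0.29 and 0.68 and after IR between -0.62 and 0.07.

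Tnni1 had the highest of these values after MS and the lowest after IR in the fibroblasts. After MS it was at 4.20, 6.03 and 4.61, against 3.78, 5.85 and 3.17 in controls (0.68, 0.23, adjusted p = 0.85), and after IR at 3.99, 3.29 and 6.38, against 4.92, 4.34 and 6.26 in controls (-0.62, 0.23, adjusted p = 0.605). The groups overlapped in both, at levels low on the scale. Without replicate 3 the change after IR passed the test (-0.99, adjusted p = 0.019). Between the populations 0 probe-sets differed in their change after MS (0% of all were higher in CM and 0% lower) and 0 after IR (0.0343% and 0.0343%).

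**Figure D5:**
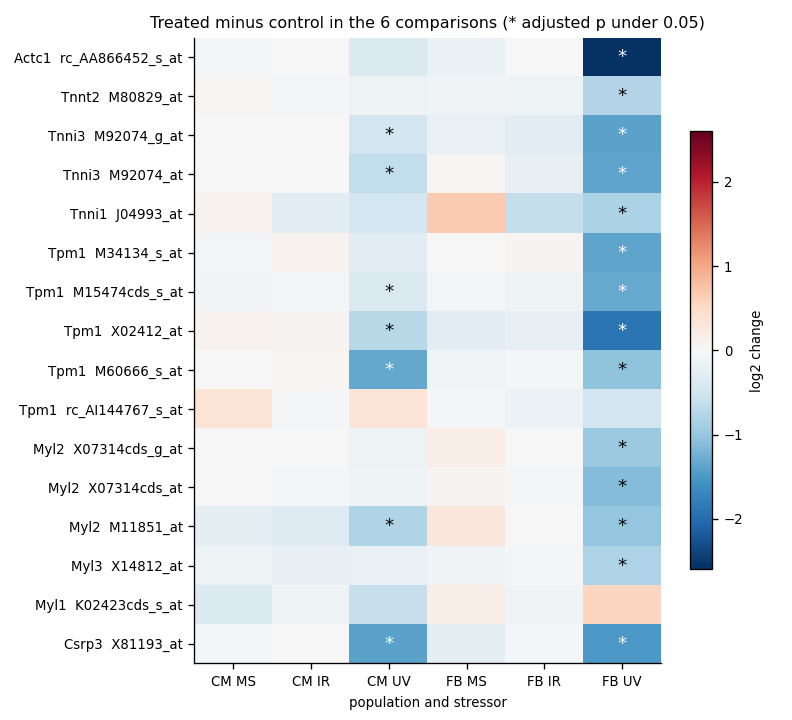
Log2 change, treated minus control (colour), of the 16 probe-sets (rows) in the 6 comparisons (columns), with a star where the adjusted p was under 0.05. Stars stand only in the UV columns, 7 for CM and 14 for FB.

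Other genes of the sarcomere gave a comparison for the UV change. Of all probe-sets 11.2% fell and 11.8% rose in FB, and 8.17% fell and 8.63% rose in CM. Of 28 on the array, 13 fell and 2 rose in cultures of fibroblasts after UV, with a median of -0.37, and 9 fell and 0 rose in CM-enriched fractions, with a median of -0.40. Ankrd1, a stretch-responsive ankyrin repeat protein of the sarcomere, fell by 2.44 in FB and by 1.89 in CM. Fhl2, a LIM protein of the sarcomere like Csrp3, fell by 1.11 and by 0.99. Skeletal actin (Acta1) fell by 1.5 in FB and by 1.04 in CM, beside -2.56 and -0.37 for cardiac actin.

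Markers of cell types moved beside the 9 genes in cultures of fibroblasts after UV, where 11.2% of all probe-sets fell and 11.8% rose. Of 23 other myocyte markers 12 fell and 0 rose (median -0.63), and they were unequal: Atp2a2, the calcium pump, was at -1.75 and Pln, its inhibitor, at -1.93, while Nppa, the atrial peptide, was at -0.27 (adjusted p = 0.10). Of 8 smooth muscle and myofibroblast markers 7 fell and 0 rose (median -1.11), with Tagln at -1.35 and Acta2 at -0.73. Of 17 fibroblast markers 6 fell and 2 rose (median -0.25), and their summed level was 15.59 to 15.79 after UV, against 15.80 to 15.92 in controls. The 9 genes summed to between 12.57 and 13.08 after UV, against 14.08 to 14.21 in controls. Of 8 endothelial and blood markers 0 fell and 1 rose, Cd14 by 0.95 (adjusted p = 0.0042), and the 8 summed to between 8.57 and 8.70 after UV, against 8.21 to 8.43 in controls, without overlap. The 1 rise among these 8 and the 2 among the 17 fibroblast markers lie near the share of all probe-sets. The endothelial marker Pecam1 averaged 4.30 after UV and 4.18 in controls. The log2 3′ to 5′ ratio of the actin control probes was 0.58, 0.60 and 0.60 after UV and 0.46, 0.41 and 0.40 in controls, without overlap. The part of a shift in cell types or of RNA quality in the fall of the 9 genes was not tested.

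Within the fibroblast cultures the genes rose and fell with each other across arrays. Over the 18 FB arrays Pearson's r was 0.95 for Tnni3 with Tpm1 and for Tnni3 with Myl2, 0.94 for Tpm1 with Csrp3, and as low as -0.33 for Actc1 with Myl1. Tnni1 followed the others less closely, with 0.48 for Tnnt2 and 0.52 for Actc1. These coefficients describe arrays that share treatments and experiments.

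Genes outside the group were ranked by likeness to it. The likeness was Pearson's r with the mean standardized level of the 9 genes. Over all 35 arrays it was highest for Casq2, the calsequestrin of heart muscle (0.984), Actn2, the actinin of the Z-disc (0.98), Sh3kbp1 (0.975), the muscle phosphorylase Pygm (0.974), Tmod1, which caps the thin filament (0.973), and Cox6a2 (0.972). Over the 18 FB arrays it was highest for Cidea (0.939), Actn2 (0.937), Casq2 (0.933), Nppa (0.928 and 0.921 for its 2 probe-sets) and Fxyd1 (0.926). The first figures reflect mostly the gap between CM and FB arrays. Actn2 fell after UV in FB by 1.14 (adjusted p = 6.77e-06) and Casq2 by 0.73 (2.76e-05), while Nppa, though alike across arrays, did not pass the test.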

How the data were processed

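Expression was measured on 35 Affymetrix GeneChip arrays of rat genes, 1 per RNA sample. The deposited values are linear intensities, 1 per array for each of 8799 probe-sets. The software that made these intensities is not given in the sources used here, and the gcrma and VSN steps in the authors' methods are not part of them. From the values, arrays were scaled to a trimmed mean of 200.3 to 200.4 (26 arrays) or 1001.5 to 1001.7 (9 CM arrays of the IR and UV experiments), and no pair mixes the 2 scales. The number of arrays limits the precision. The deposited scan records (unit other) gave only scan and array lot.

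Arrays were scaled to a common 75th percentile, floored at their 20th percentile (6.9), taken to log2 and quantile normalized. Control probe-sets (59) were left out. limma 3.58.1 (R 4.3.3) was fitted to all arrays with a variance trend and the numbered experiment as a block (11 residual degrees of freedom), tests were two-sided, and p was adjusted by Benjamini-Hochberg over 8740 probe-sets with 0.05 as threshold. Levels of untreated samples used the 17 control arrays without a block. Experiments are separate cultures as far as the numbers in the titles say. Each p uses 1 spread per probe-set, pooled over all arrays of its fit and not only those compared. Where groups differ in spread, p can be too strict for tight groups and too lenient for scattered ones. Pairs come from those numbers, and the authors' model included experiment as a term. Deviations from group means correlated between 0.06 and 0.80 in 17 pairs, over 0.1 in 14.

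Genes named are all members, up to 4 genes of each other list with the smallest adjusted p after UV, cell type markers, and the 6 genes of most similar pattern. Members and lists were chosen with earlier results of these data known. Gene symbols came from the platform annotation, with 7006 probe-sets of 1 symbol, 308 of several and 1426 of none. Alternatives were no block, a random block (statmod 1.5.0, correlation 0.307), scaling only, a floor at the 40th percentile, a pseudocount of 16, a filter on dim probe-sets, no trend, the comparison's own arrays, each replicate left out, and scan or lot blocks for CM IR. The fit was tried on simulated data with the same spread in all groups of a probe-set. The real groups differ in spread, so the simulation does not test that feature.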

Additional observations from a re-analysis of the deposited data

Results flagged for a closer look

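In 7 probe-sets of 4 genes the change after UV differed between the populations by the test of the difference itself, CM-enriched fractions minus cultures of fibroblasts. The differences were 2.19 for Actc1, 0.92 and 0.74 for the 2 probe-sets of Tnni3, 0.62 for Tnnt2, and 1.09, 0.92 and 1.16 for the Tpm1 probe-sets M34134_s_at, M15474cds_s_at and X02412_at. In each the measured fall was larger in cultures of fibroblasts, and each kept its direction under all 11 alternatives. The calls were less firm, passing under between 4 (Tnni3 M92074_at) and 8 (Actc1) of the 11. None passed without the block, with a random block or on the comparison's own arrays. The CM side rests on 2 pairs. Whether values near the top of the scale were compressed was not tested. The share of myocytes differed between the populations before UV. The authors report it by group, from flow cytometry of myosin, but it is not given per array in the sources used here. Its part in these differences was not tested.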

How the results depend on the processing

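Results for the 16 probe-sets were recomputed under up to 13 alternative settings. Of 2464 values, 2271 kept direction and side of the threshold, 162 lost their call, 31 gained one and 0 called values changed sign, while 118 values that were called in neither setting changed sign. The replicate block mattered most, in a fit whose comparisons share 1 estimate of the spread. Without the replicate block, 0 probe-sets fell in CM after UV and 4 in FB after UV, and 0 differences between the populations passed. With a random block the counts were 2, 7 and 0, and 1 probe-set (Myl1) rose in FB after UV and 1 had a difference below 0. With the arrays of a comparison alone they were 0, 8 and 0, and such fits gave 2 and 13 probe-sets higher in CM than FB in MS and UV controls and 0 lower in IR controls. With the floor at the 40th percentile Myl1 rose in FB after UV (1), differed between the populations (1) and was higher in UV than in IR controls of CM (1). With the pseudocount 1 difference fell below 0 and 2 probe-sets were higher in UV than in MS controls of CM. Leaving out 1 replicate gave these ranges: 3 to 6 lower in CM after UV, 0 to 1 lower in FB after IR, 1 to 7 differences above 0 after UV, 1 to 13 higher in CM than FB in MS controls, 5 to 12 higher and 0 to 1 lower in IR controls, 2 to 5 higher and 0 to 1 lower in UV controls, and 0 to 1 higher in UV than in MS controls of CM. In FB after UV it left 11 to 14 lower. Limits are 2 or 3 pairs a comparison, and mixed cells on every array.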
